A study of Mus musculus with 51 samples.

Results

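Alveolar macrophages, the phagocytes that patrol the airspaces of the lung, were profiled 2 h after conidia of the mould Aspergillus fumigatus had been instilled into the lungs of C57Bl/6 mice. The comparison set 4 arrays of macrophages that had met the higher dose, labelled e7, against 4 arrays from mice given a mock treatment, also collected at 2 h. These 8 arrays, of 51 in the series, were chosen by their titles, and all 22626 probe sets other than the array's controls were tested. C57Bl/6 is a standard inbred strain and served as the wild type (WT). Other WT arrays used below are 4 at 2 h with the lower dose, labelled e6, 4 of macrophages from untreated mice at 0 h, and 4 e7 and 4 mock arrays at 4 h. The gp91phox-/- mice (KO), whose phagocytes cannot assemble a working NADPH oxidase, gave 3 e7 and 3 mock arrays at 2 h. The labels give the doses only as e6 and e7, give no age or sex, and call the arrays of a group biological replicates without saying how many mice stood behind each. The p-values therefore measure the spread between arrays. For the e7 arrays at 2 h the source field of the labels reads as macrophages together with an untreated control, and for the WT mock arrays at 4 h the treatment field names conidia. In both cases the titles were followed.

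Alveolar macrophages take up inhaled conidia and are among the first cells to sense them. Surface and intracellular receptors, among them dectin-1 and the Toll-like receptors, signal through NF-kB and the MAP kinases. Transcription factors of the immediate-early class are induced without new protein synthesis, and chemokines and cytokines then draw neutrophils into the airspace. The purpose stated for the series was to compare macrophages of a normal host with those of an immune-compromised one, in view of the susceptibility to invasive aspergillosis.

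The arrays carried the signature of their labelled cell, beside signal from some markers of other cell types. Of 22 measured alveolar macrophage markers, 21 had a mean signal above 500 in both groups. Siglecf, a lectin that marks these cells, read 12.79, 12.53, 12.55 and 12.32 on the log2 scale on e7 replicates 1 to 4 and 12.5, 12.59, 12.46 and 12.51 on mock replicates 1 to 4. Of 16 neutrophil markers, 12 had a mean signal under 50 with e7 and 11 with mock, and their summed signal ranged from 1181 to 2113 with e7 and from 1478 to 2057 with mock. Of 17 lung epithelium markers, 5 had a mean above 500 with e7 and 4 with mock (sums of 8226 to 12138 and of 10508 to 13411). Of 14 monocyte and dendritic cell markers, 4 had a mean above 500 in each group (sums of 10211 to 12603 with e7 and of 6022 to 11862 with mock). Summed markers of T and NK cells lay lower with e7 (3560 to 4421) than with mock (5082 to 6224), with 14 of 16 under a mean of 50 in each group. Only 1 marker had a mean above 500, so the sums rest mainly on that gene. Of the 16 markers 8 differed upward and 8 downward, with a median of 0.01 and 0 called. Among all genes 1.02% were called higher and 0.734% lower. Cybb encodes the protein missing from KO mice and read 10.59 to 11.23 on the WT e7 arrays and 11.1 to 11.7 on the mock arrays (log2 difference -0.34 ± 0.27, adjusted p = 0.593). Here and below, an error after ± is the standard error from limma, and an adjusted p is limma's, by Benjamini-Hochberg over all tested probe sets. A probe set was called when that value was under 0.05.

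One technical measure lay apart between the groups and is given before the results. The ratio of the 3' to the 5' control signal, averaged over Gapdh and Actb on the log2 scale, rises as RNA becomes shorter. It read 4.85, 2.82, 2.09 and 3.1 on e7 replicates 1 to 4 and 1.47, 1.41, 1.41 and 0.93 on the mock arrays. The groups did not overlap (difference 1.91, exact two-sided permutation p = 0.0286, the smallest that 4 arrays against 4 can give). The untreated arrays, at 3.92, 3.55, 1.65 and 2.43, overlapped with the e7 arrays (difference 0.33, exact permutation p = 0.714). The e6 arrays read 2.07, 1.06, 2.25 and 2.41. Fits with this ratio as a covariate, and against the untreated arrays, are therefore set beside the results.

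**Figure D1:**
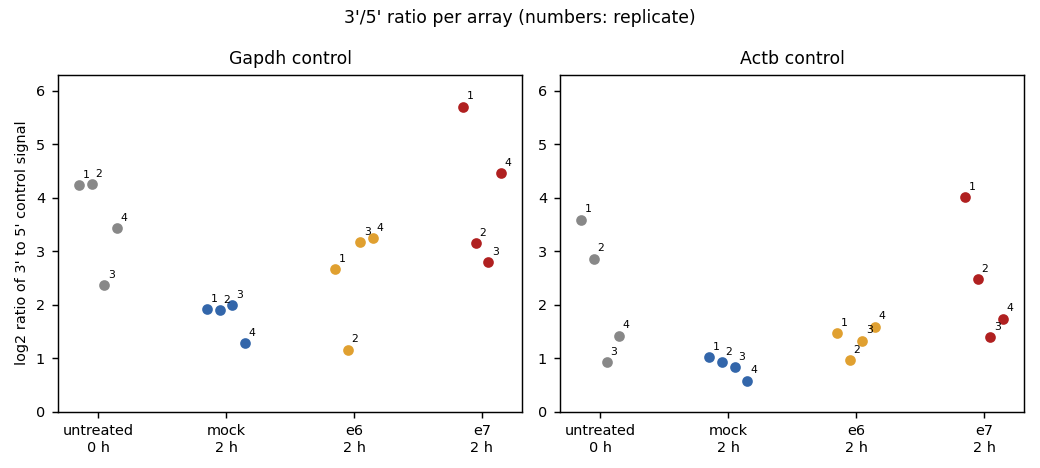
The ratio of 3' to 5' signal on the log2 scale (vertical axis) for the Gapdh and Actb controls on each WT array, by group (horizontal axis), with replicate numbers beside the points. The 4 e7 arrays lie above the 4 mock arrays for both controls and overlap with the untreated arrays.

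The gene with the largest rise was Cxcl2, followed by its neighbour Cxcl1. Both encode chemokines that attract neutrophils, and NF-kB is a known regulator of both. Their promoters are shown with that of Ccl3, the third chemokine called, because all 3 genes were called higher with e7. The sequences are from RefSeq on GRCm38.p6 and cover the 150 bases upstream of the annotated start, 5' to 3' on the gene's strand. Capitals mark matches to GGGNNNNNCC on either strand, a pattern built on the outer bases of the NF-kB consensus.
Cxcl1, chr5:90891095-90891244 (+): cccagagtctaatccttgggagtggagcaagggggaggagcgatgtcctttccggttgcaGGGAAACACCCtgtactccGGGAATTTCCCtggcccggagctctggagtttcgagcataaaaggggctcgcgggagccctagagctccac
Cxcl2, chr5:90903749-90903898 (+): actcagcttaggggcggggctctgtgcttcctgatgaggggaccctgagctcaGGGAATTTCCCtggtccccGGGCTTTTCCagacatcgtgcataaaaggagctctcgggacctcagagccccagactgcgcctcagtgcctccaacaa
Ccl3, chr11:83649379-83649528 (-): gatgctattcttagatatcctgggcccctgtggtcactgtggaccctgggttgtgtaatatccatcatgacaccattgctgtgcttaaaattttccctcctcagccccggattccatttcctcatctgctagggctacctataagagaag

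Cxcl1 and Cxcl2 both held the exact letters GGGAATTTCC, starting 71 bases upstream of the start in Cxcl1 and 97 bases upstream in Cxcl2. Over windows of 300 bases, 250 before the start and 50 after it, this exact form was found on either strand in 24 of 27025 RefSeq promoters (0.0888%). The looser pattern GGGNNNNNCC, which includes it, was found in 50.4% of those promoters and in 64.1% of the 9887 promoters of measured genes. Among the genes called higher, 106 had a promoter in the table. Of these, 80 (75.5%) held the looser pattern and 2 held the exact form, Cxcl1 and Cxcl2. Among the genes called lower, 74 had a promoter, and 47 of them (63.5%) held the looser pattern. In the window of Ccl3 neither pattern was found. A match describes letters and not a bound site.

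Across the array, 365 of 22626 probe sets were called (1.61%), with 191 at a higher signal after e7 conidia (0.844%) and 174 at a lower one (0.769%). In terms of genes, each represented by its brightest probe set, 127 of 12393 were called higher (1.02%) and 91 lower (0.734%). The rises spanned log2 differences of 0.43 to 4.12 with a median of 0.72, and 23 of them passed 2-fold. Falls spanned -0.38 to -3.73 with a median of -0.75, and 18 passed 2-fold. The median over all genes was -0.02. For 204 of the 218 called genes the e7 and mock arrays did not overlap, while 730 of all 12393 genes (5.89%) had every e7 array above every mock array and 763 (6.16%) had every one below. The 218 genes were chosen by the difference between these same arrays, which favours separate groups, so the 204 give no further support to the calls. Of the called genes, 106 were represented by further probe sets, 172 in number. Of those 172, 136 differed in the same direction, 27 were themselves called in it, and 0 were called in the opposite direction (limma). The count of called probe sets rested on single arrays: it was 63 without mock replicate 2, 91 without mock replicate 3, 173 without mock replicate 1, 591 without mock replicate 4, and 92, 177 and 152 without e7 replicates 1, 2 and 4. It was 45 with the 3'/5' ratio as a covariate. The count also rested on the other arrays in the fit, at 77 with only the 30 WT arrays and 4 with only the compared groups. As these are bulk samples, fewer cells of a type and less RNA per cell cannot be told apart.

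**Figure D2:**
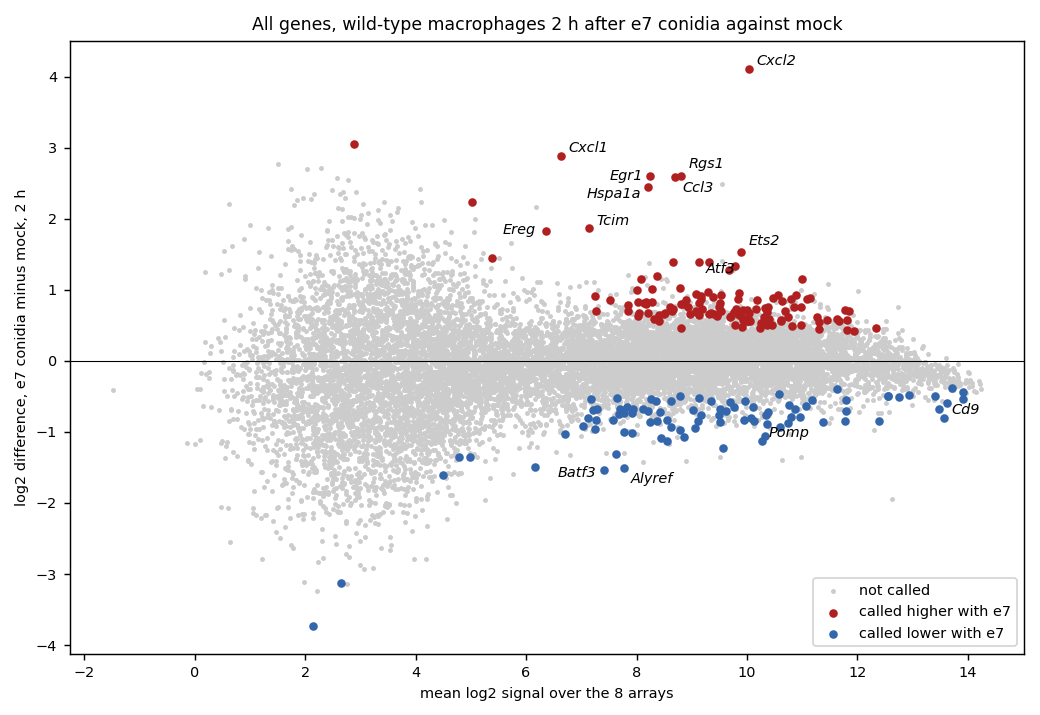
Log2 difference between e7 conidia and mock at 2 h (vertical axis) against the mean log2 signal over the 8 arrays (horizontal axis), 1 point per gene for 12393 genes. Red points are the 127 genes called higher and blue points the 91 called lower, with Cxcl2 at 4.12 as the highest.

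Chemokines and cytokines were led by 4 genes. Cxcl2 read 12.81, 11.98, 11.52 and 12.04 (log2 signal) on e7 replicates 1 to 4 and 8.32, 7.91, 7.76 and 7.91 on mock replicates 1 to 4. All e7 arrays lay more than 3 log2 units above all mock arrays, a 17.3-fold rise (4.12 ± 0.69, adjusted p = 0.00135). Cxcl1 read 8.53, 7.85, 7.68 and 8.22 with e7 against 5.97, 4.77, 4.62 and 5.35 with mock, a 7.41-fold rise without overlap (2.89 ± 0.5, adjusted p = 0.00226). Ccl3, which encodes the macrophage inflammatory protein 1 alpha that attracts several leukocyte types, read 9.6, 9.74, 10.16 and 10.43 against 7.35, 8.08, 7.58 and 6.59. Its e7 arrays were again all higher (5.99-fold, 2.58 ± 0.63, adjusted p = 0.0271). Ereg, which encodes epiregulin, a growth factor of the EGF family, read 7.75, 7.05, 6.77 and 7.52 against 5.62, 5.12, 5.18 and 5.84. It rose 3.56-fold without overlap (1.83 ± 0.34, adjusted p = 0.00479). Leaving out any 1 of the 8 arrays kept the calls of Cxcl2, Cxcl1 and Ereg. Ccl3 passed only without e7 replicate 3, with values of 2.31 to 2.81 over the 8 omissions and adjusted p-values of up to 0.0811.

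Most of the other ligands did not pass. Of 28 measured chemokines 3 were called higher and 0 lower, and of 24 cytokines 1 was called higher and 0 lower, against 1.02% and 0.734% of all genes. The median member differed by 0.01 among chemokines and by -0.09 among cytokines. Tnf, which encodes the cytokine TNF, read 8.65, 7.89, 7.24 and 8.59 with e7 against 6.9, 7.3, 6.96 and 7.45 with mock. Its groups overlapped through e7 replicate 3, and the difference of 0.94 ± 0.35 had an adjusted p of 0.161. Il1b, which encodes interleukin 1 beta, read 8.93, 8.68, 8.74 and 9.31 against 7.95, 7.09, 7.67 and 7.43. The arrays did not overlap, but the difference of 1.38 ± 0.79 did not pass (adjusted p = 0.414). For Il1a, which encodes interleukin 1 alpha, the values were 9.18, 8.85, 8.8 and 9.59 against 8.57, 8.26, 8.0 and 7.9 (0.92 ± 0.34, adjusted p = 0.161), also without overlap. Ccl4, a close relative of Ccl3, differed by 1.11 ± 0.59 (adjusted p = 0.364), and the interferon-responsive chemokine gene Cxcl10 by 0.93 ± 0.36 (adjusted p = 0.182). Il6 lay near the bottom of the signal range, between 1.16 and 4.83 with e7 and between -0.98 and 4.31 with mock.

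Among 27 measured receptors of fungal and microbial products 1 was called higher and 0 lower, against 1.02% and 0.734% of all genes. The median was -0.13 (0.01 after quantile normalization). The 1 called was Tlr4, the receptor of endotoxin, at 11.38, 11.31, 11.01 and 11.22 with e7 against 10.66, 10.25, 10.29 and 10.65 with mock. The arrays did not overlap (1.7-fold, 0.77 ± 0.18, adjusted p = 0.021). Omitting mock replicate 2 or 3, or e7 replicate 1, 2 or 4, ended the call (0.69 to 0.77). A further probe set of Tlr4 differed by 0.41 ± 0.16 (adjusted p = 0.177). Clec4e, which encodes Mincle, a receptor of fungal glycolipids, read 10.64, 10.29, 9.81 and 10.23 against 8.89, 8.85, 8.85 and 8.78. Its e7 arrays were all higher, yet the difference of 1.4 ± 0.4 just missed the threshold (adjusted p = 0.0587). Clec7a, which encodes dectin-1, differed by -0.3 ± 0.13 (adjusted p = 0.221) and Tlr2 by 0.18 ± 0.13 (adjusted p = 0.546). Of 35 chemokine and cytokine receptors only Ifnar1, a chain of the type I interferon receptor, was called (0.58 ± 0.16, adjusted p = 0.0466), and omitting mock replicate 1, 2 or 3, or e7 replicate 1 or 2, ended the call (0.46 to 0.61).

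Immediate-early transcription factors had 3 of 31 measured members called higher and 0 lower, against 1.02% and 0.734% of all genes. Their median was 0.29 against -0.02 for all genes, and 8 had every e7 array above every mock array, against 5.89% of all genes. Egr1, a zinc finger factor induced within minutes by growth factor and stress signals, read 9.45, 9.36, 9.46 and 9.9 with e7 against 7.03, 6.95, 6.73 and 7.05 with mock. The groups lay more than 2 log2 units apart (6.08-fold, 2.6 ± 0.49, adjusted p = 0.00479). Atf3, a stress-induced factor that restrains inflammatory genes, read 9.89, 9.57, 9.81 and 10.02 against 8.43, 8.68, 8.26 and 8.37 (2.62-fold, 1.39 ± 0.26, adjusted p = 0.00479). Jund, an AP-1 subunit, read 11.03, 11.57, 11.56 and 11.93 against 10.78, 10.07, 10.61 and 11.15. Here e7 replicate 1 lay below mock replicate 4, and the difference of 0.87 ± 0.23 (adjusted p = 0.0433) lost its call on omission of mock replicate 1, 2 or 3, or of e7 replicate 2, 3 or 4 (0.67 to 0.91). With the 3'/5' covariate Egr1 differed by 2.29 ± 0.54, just short of the threshold (adjusted p = 0.0613), and Atf3 by 1.7 ± 0.27, still called. The median of the list was 0.33 with the covariate and 0.19 against the untreated arrays.

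Other AP-1 genes were mixed. Jun read 9.16, 9.5, 9.04 and 9.77 with e7 against 8.12, 8.8, 8.61 and 8.3 with mock, without overlap, and did not pass (0.91 ± 0.26, adjusted p = 0.0571). A dimmer probe set of Jun did (1.07 ± 0.28, adjusted p = 0.0404). Fos differed by -0.11 ± 0.21 (adjusted p = 0.863) from a high level of 12.28 to 12.86 in mock, and Junb by -0.6 ± 0.43 (adjusted p = 0.535). Maff, a small Maf factor, read 9.82, 9.83, 9.33 and 9.79 against 9.38, 9.34, 9.13 and 9.12 (0.45 ± 0.21, adjusted p = 0.282). Ier3 at 1.05 ± 0.64 and Klf6 at 0.49 ± 0.18 had non-overlapping arrays without passing (adjusted p = 0.453 and 0.149). Dimmer probe sets of Klf6 differed by 1.07 ± 0.36 and 0.14 ± 0.25, also without passing (adjusted p = 0.11 and 0.862). Ets2, a factor of the ETS family, was among the larger rises at 10.82, 10.44, 10.54 and 10.86 against 9.18, 8.93, 8.88 and 9.53 (1.54 ± 0.38, adjusted p = 0.029). The 8 arrays did not overlap, but the call held only without e7 replicate 3 or mock replicate 4 among the 8 omissions (1.45 to 1.67 over all 8).

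The NF-kB pathway and its feedback genes had 1 of 20 measured members called higher, 0 lower and a median of 0.3, with 5 members lying above mock on every e7 array. Of all genes 1.02% were called higher and 5.89% lay above mock on every e7 array. The median was 0.3 with the 3'/5' covariate and 0.16 against the untreated arrays. The called gene was Tank, an adaptor of the TRAF proteins, at 9.44, 8.94, 10.03 and 9.75 against 8.69, 8.53, 8.18 and 9.02 (0.94 ± 0.22, adjusted p = 0.0234). Its e7 replicate 2 lay below mock replicate 4, and omitting mock replicate 2 or 3, or e7 replicate 1, 3 or 4, ended the call (0.77 to 0.97). Relb, an NF-kB subunit, and Bcl3, a nuclear inhibitor-like partner, each differed by 1.11 without overlap of the arrays and without passing (adjusted p = 0.215 and 0.204). Nfkbia, which encodes the inhibitor of NF-kB, differed by 0.31 ± 0.13 (adjusted p = 0.237). Its dimmer probe sets differed by 0.07 ± 0.19, 0.55 ± 0.3 and 0.84 ± 0.27 without passing (adjusted p = 0.097 for the last). Tnfaip3, which encodes the ubiquitin editing enzyme A20, differed by 1.61 ± 0.59 (adjusted p = 0.149), and by 0.76 without mock replicate 3, which read 1.03 while the other mock arrays read 3.98 to 5.09.

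Feedback regulators of signalling had 2 of 29 members called higher (against 1.02% of all genes), 0 lower and a median of 0.38 (0.33 with the 3'/5' covariate and 0.22 against untreated). Rgs1, which dampens G-protein signalling downstream of chemokine receptors, read 10.43, 9.95, 9.99 and 10.09 with e7 against 7.28, 8.06, 7.62 and 7.06 with mock. The separation of nearly 2 log2 units between the closest arrays gave the smallest p-value of the named genes (6.1-fold, 2.61 ± 0.31, adjusted p = 7.1e-06). It was called under each of the 20 alternatives run. Cish, an inhibitor of cytokine receptor signalling, read 9.55, 9.79, 9.94 and 9.87 against 9.02, 8.61, 8.8 and 8.84 (0.97 ± 0.22, adjusted p = 0.0169) and was not called when mock replicate 2 or 3, or e7 replicate 4, was omitted (0.9 to 0.96). Plk2, a stress-induced kinase, read 8.03, 7.83, 6.18 and 6.99 against 5.56, 5.52, 5.57 and 3.71. No arrays overlapped, but the difference of 2.17 ± 0.66 did not pass (adjusted p = 0.0766). Dusp1, a MAP kinase phosphatase, differed by 0.84 ± 0.48 with overlapping arrays (adjusted p = 0.412).

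**Figure D3:**
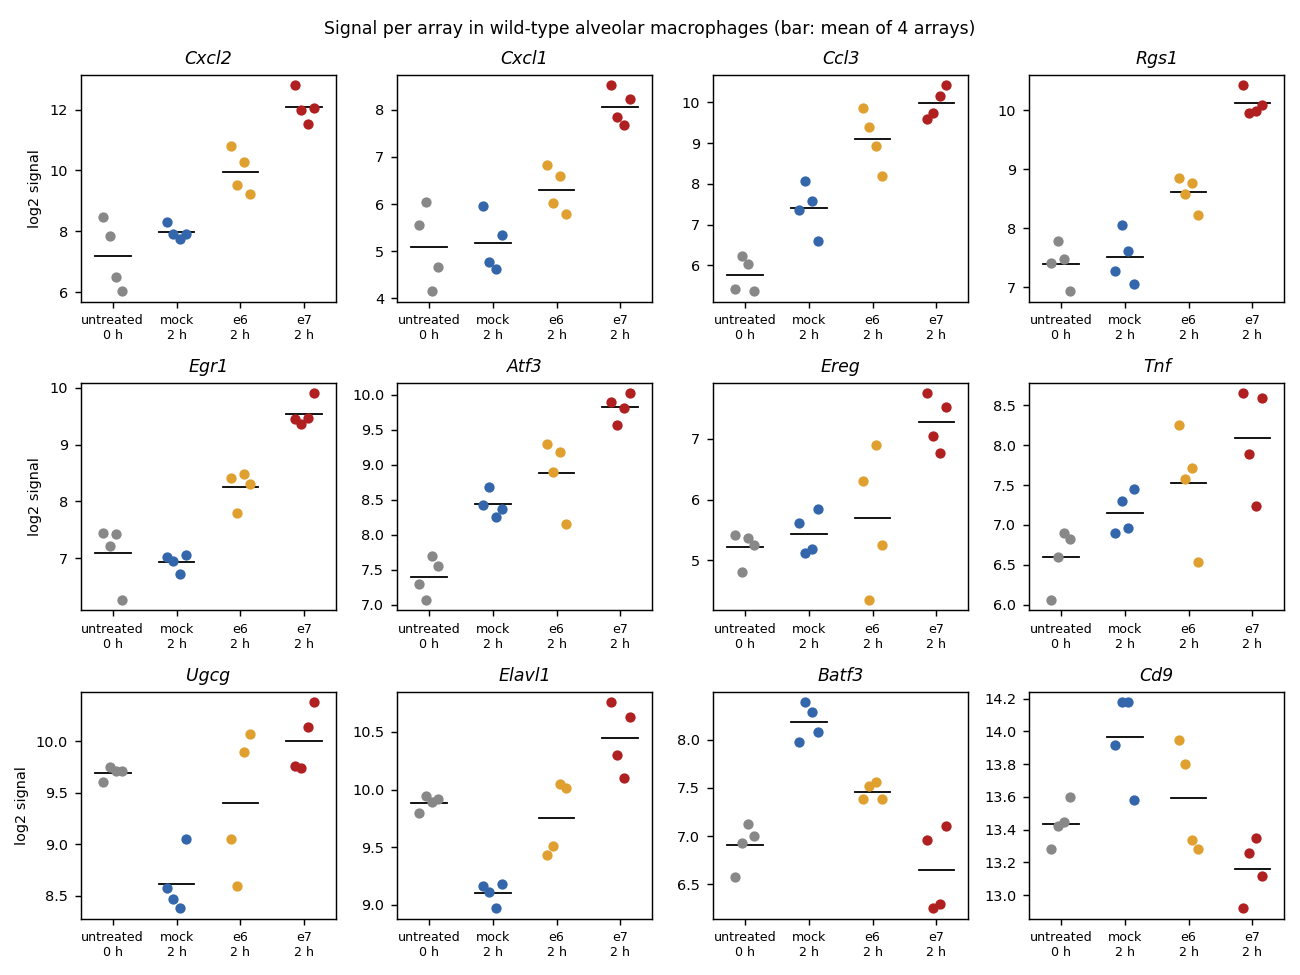
Log2 signal (vertical axis) of 12 genes on each WT array of 4 groups, untreated at 0 h and mock, e6 and e7 at 2 h (horizontal axis), 4 arrays per group with the mean as a bar. Cxcl2, Cxcl1, Ccl3, Rgs1, Egr1, Atf3 and Ereg are higher with e7 than in mock and in untreated mice. The untreated means of Ugcg, Elavl1, Batf3 and Cd9 lie between those of mock and e7, as does that of Egr1, which lies close to mock.

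Further rises came from several cell functions. Hspa1a, which encodes an inducible chaperone of the HSP70 family, read 9.1, 10.24, 8.25 and 10.11 with e7 against 7.32, 6.82, 7.15 and 6.62 with mock (5.44-fold, 2.44 ± 0.64, adjusted p = 0.0409). Its e7 arrays were the most scattered of the large rises, and the call held only without e7 replicate 3 among the omissions of 1 array (2.17 to 2.84 over the 8). The untreated arrays read 9.63, 9.32, 6.69 and 6.52 and the e6 arrays 9.09, 8.72, 6.58 and 6.34, so that 2 of each lay within the range of e7. Against untreated the difference was 1.38 ± 0.64 and was not called. The nearly identical Hspa1b may share its probes, so the pair is uncertain. Of 29 heat shock and unfolded protein genes 1 was called higher (against 1.02% of all genes) and 0 lower. In 8 all e7 arrays lay above all mock arrays (against 5.89% of all genes), among them the HSP70 cochaperone genes Dnajb1 (0.94 ± 0.33, adjusted p = 0.133) and Dnaja1. Tcim, a small regulator of transcription, read 8.73, 8.28, 7.15 and 8.14 against 6.03, 6.28, 6.14 and 6.4 (1.86 ± 0.35, adjusted p = 0.00479). Elavl1, which encodes the RNA-stabilizing protein HuR, read 10.76, 10.3, 10.1 and 10.63 against 9.16, 9.11, 8.97 and 9.18 (1.34 ± 0.19, adjusted p = 0.000134). Ugcg, the enzyme that makes glucosylceramide, read 9.76, 9.74, 10.14 and 10.38 against 8.58, 8.47, 8.38 and 9.05 (1.39 ± 0.25, adjusted p = 0.00338), while its dimmer probe sets differed by 0.8 ± 0.38 and 0.13 ± 0.28 without passing.

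Cd83, an activation marker of antigen-presenting cells, stood out by its tightness, at 11.68, 11.46, 11.62 and 11.56 with e7 against 10.58, 10.44, 10.4 and 10.28 with mock (1.15 ± 0.23, adjusted p = 0.00728). Nfe2l2, which encodes the antioxidant regulator NRF2, read 12.02, 11.98, 12.18 and 12.25 against 11.67, 11.41, 11.53 and 11.5 (0.58 ± 0.11, adjusted p = 0.00555). Both pairs of groups were separate, and both calls held without any 1 array. Both were lost in a fit of the compared groups alone and without e7 replicates 1 and 4. Against the untreated arrays Cd83 differed by 0.92 ± 0.23 and Nfe2l2 by 0.24 ± 0.11, neither of them called. The other 25 measured antioxidant genes included 0 that were called, Hmox1 among them (0.38 ± 0.3, adjusted p = 0.59). As 1.02% of all genes were called higher and 0.734% lower, this count says little about these genes. Of the 26 in the list with Nfe2l2, 4 lay above mock on every e7 array and 4 below (5.89% and 6.16% of all genes). Cflar, which encodes the caspase 8 inhibitor FLIP, rose by 0.81 ± 0.18 (adjusted p = 0.0169) and was not called when mock replicate 2 or 3, or e7 replicate 1, 2 or 4, was omitted (0.72 to 0.83). Its 3 dimmer probe sets differed by 0.11 ± 0.23, 0.49 ± 0.38 and 0.9 ± 0.38 without passing. Eea1, which encodes a tether of early endosomes, was the 1 of 34 lysosome and phagosome genes called (0.86 ± 0.21, adjusted p = 0.0238), against 1.02% of all genes called higher. The same omissions as for Cflar, other than e7 replicate 2, ended the call of Eea1 (0.74 to 0.83). Thbd, which encodes the anticoagulant receptor thrombomodulin, rose by 1.02 ± 0.27 (adjusted p = 0.0382), a call that held only without e7 replicate 3 or mock replicate 4. Ahsa2, an HSP90 cochaperone gene, rose by 1.28 ± 0.21 (adjusted p = 0.000824), and Ccdc117 by 1.19 ± 0.23 (adjusted p = 0.00652), each without overlap. Against the untreated arrays Ccdc117 differed by 0.02 ± 0.23. Ttc7b, which encodes part of a lipid kinase complex at the plasma membrane, rose by 1.39 ± 0.34 (adjusted p = 0.0297) and held its call only without e7 replicate 2 or mock replicate 4 among the omissions. Of the 25 rises named by the rule, 13 kept their calls with the 3'/5' covariate, among them Cxcl2, Cxcl1, Ccl3, Rgs1, Atf3, Ereg, Elavl1, Cd83 and Nfe2l2. The other 12 lost their calls. Of these, the differences of Hspa1a (2.54), Tank (1.02), Jund (0.99) and Ifnar1 (0.6) with the covariate were no smaller than without it. Those of Egr1 (2.29), Ttc7b (1.26), Ugcg (1.14), Ets2 (1.04), Eea1 (0.76), Thbd (0.69), Tlr4 (0.69) and Cflar (0.6) were smaller. Without e7 replicates 1 and 4, whose ratios were the highest, Rgs1, Elavl1, Ahsa2 and Batf3 were the 4 of 52 called named genes that remained, and Rgs1, Cxcl2 and Egr1 were the 3 that remained in a fit of the 8 arrays alone.

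Among genes with a group mean signal of at least 100, the largest fall was that of Batf3, a transcription factor of the AP-1 family best known from dendritic cells. It read 6.96, 6.25, 6.3 and 7.1 with e7 against 7.97, 8.39, 8.29 and 8.08 with mock (2.89-fold lower, -1.53 ± 0.32, adjusted p = 0.00896). Clec5a, a myeloid lectin receptor, read 8.08, 7.88, 7.9 and 7.75 against 8.9, 9.12, 9.09 and 8.87 (2.13-fold lower, -1.09 ± 0.23, adjusted p = 0.0104). Both separated without overlap, and both lost their calls without mock replicate 2 (-1.46 and -1.05). Lst1, a small leukocyte membrane protein, read 8.34, 8.67, 8.2 and 8.06 against 9.16, 9.42, 9.34 and 9.65 (-1.08 ± 0.22, adjusted p = 0.00794) and kept its call without any 1 array. With the 3'/5' covariate these 3 genes lost their calls, at -1.38 ± 0.36, -0.75 ± 0.23 and -0.91 ± 0.24. Against the untreated arrays they differed by -0.25, -0.09 and -0.61, none of them called.

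The other 12 of the 15 largest falls came from genes of varied roles. Alyref, an mRNA export adaptor, read 6.28, 6.94, 7.32 and 7.53 with e7 against 8.29, 8.67, 8.68 and 8.47 with mock (-1.51 ± 0.32, adjusted p = 0.00938). Ddx49, an RNA helicase, read 6.66, 6.94, 7.09 and 7.22 against 8.51, 8.33, 8.22 and 8.11 (-1.31 ± 0.32, adjusted p = 0.0274), while its dimmer probe set differed by -0.11 ± 0.67. Pomp, the proteasome maturation protein, read 9.56, 9.68, 10.04 and 9.53 against 10.75, 11.09, 10.89 and 10.57 (-1.12 ± 0.28, adjusted p = 0.0283). In each of these the groups were separate. Banf1, which encodes a chromatin-binding protein of the nuclear envelope (-1.23 ± 0.26), and Ruvbl2, a helicase of chromatin remodelling complexes (-1.13 ± 0.26), fell as well, as did Psmg4, a proteasome assembly chaperone (-0.96 ± 0.25), Pfdn1, a prefoldin subunit (-1.0 ± 0.22), and Mcm5, a replication helicase subunit (-1.01 ± 0.27). The remaining large falls were Dnajc17 (-1.5 ± 0.4), the sugar enzyme genes Renbp (-1.05 ± 0.28) and Cryl1 (-0.98 ± 0.23), and the mitochondrial topoisomerase gene Top1mt (-1.03 ± 0.25). Top1mt was the only one of these 15 whose arrays overlapped. Dimmer probe sets of Dnajc17 (0.17 ± 0.73) and Cryl1 (0.41 ± 0.29) lay on the other side of 0 without passing. All 12 falls in this paragraph lost their calls with the 3'/5' covariate (values of -0.47 to -0.84) and without mock replicate 2 (-0.87 to -1.47), and Mcm5 lost its call without any of the 8 arrays (-0.9 to -1.1). Against the untreated arrays the difference of Renbp was -0.08 and that of Banf1 -0.17, and none of the 12 was called.

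Few genes of basal metabolism and translation were called, and those in the lists of this paragraph that were called lay lower with e7. Of 28 measured cytosolic ribosomal protein genes 4 were called lower and 0 higher, against 0.734% and 1.02% of all genes. In 12 of them every e7 array lay below every mock array (against 6.16% of all genes), and the median was -0.34. Rps19 read 11.06, 11.59, 11.61 and 11.18 with e7 against 12.11, 12.36, 12.16 and 12.22 with mock (-0.85 ± 0.17, adjusted p = 0.00794), and Rpl22 read 12.13, 12.0, 11.63 and 12.11 against 12.75, 12.94, 12.85 and 12.72 (-0.85 ± 0.2, adjusted p = 0.019). A dimmer probe set of Rpl22 differed by 0.23 ± 0.15 (adjusted p = 0.468). Rplp2 (-0.59 ± 0.14) and Rpl6 (-0.5 ± 0.11) were the others called. Many ribosomal genes have near-identical processed copies in the genome, which leaves their probe sets uncertain. Of 39 genes of the mitochondrial respiratory chain 3 were called lower and 0 higher, against 0.734% and 1.02% of all genes. The called genes were Ndufa4 (-0.68 ± 0.18), Ndufa5 (-0.62 ± 0.15) and Cox5b (-0.51 ± 0.14), and the median of the list was -0.26. Of 5 dimmer probe sets of Cox5b, 1 was called lower (-0.57 ± 0.12, adjusted p = 0.0104) and another lay higher without passing (0.62 ± 0.3, adjusted p = 0.3). Of 32 proteasome subunits 0 were called in limma (7 lower and 1 higher at an unadjusted p under 0.05), against 0.734% of all genes lower and 1.02% higher. In 6 of them every e7 array lay below mock (against 6.16% of all genes), and the median was -0.21. Against the untreated arrays these 3 medians were -0.14, -0.10 and -0.04, and with the 3'/5' covariate -0.26, -0.18 and -0.09. All 7 calls of the ribosomal and mitochondrial genes were lost with the 3'/5' covariate (-0.38 to -0.61) and without mock replicate 2 (-0.44 to -0.8). Actb, the cytoskeletal actin, fell by 0.53 on the log2 scale (SE 0.1, adjusted p = 0.00479), at 13.64, 13.71, 13.62 and 13.58 with e7 against 14.18, 14.26, 14.43 and 13.82 with mock. Its call held with the 3'/5' covariate (-0.5) and without any 1 array. It was lost with quantile normalization, with only the WT arrays or only the compared groups, and without e7 replicates 1 and 4. Against the untreated arrays Actb differed by -0.2 ± 0.1, not called. Actb is also a control of the 3'/5' ratio. The glycolytic enzyme genes Tpi1 (-0.79 ± 0.2) and Aldoa (-0.48 ± 0.11) were the 2 called of 21 in their list (against 0.734% of all genes called lower). Both lost their calls without mock replicates 2 or 3 or e7 replicates 1 or 2 (-0.43 to -0.76) and with the covariate (-0.41 and -0.35).

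Of the 22 alveolar macrophage markers 2 were called lower and 0 higher, against 0.734% and 1.02% of all genes. The median of -0.24 became 0.02 after quantile normalization. Cd9, a tetraspanin abundant on these cells, read 12.92, 13.26, 13.35 and 13.12 with e7 against 13.92, 14.18, 14.18 and 13.58 with mock (-0.8 ± 0.17, adjusted p = 0.00954). Fabp5, a fatty acid binding protein gene, read 13.56, 13.64, 13.44 and 13.46 against 13.91, 14.03, 14.03 and 13.65 (-0.38 ± 0.1, adjusted p = 0.0481). A dimmer probe set of Fabp5 fell by 0.93 on the log2 scale (SE 0.2, adjusted p = 0.011). The e7 and mock arrays overlapped in neither gene. Both lost their calls with quantile normalization, with the 3'/5' covariate (-0.49 for Cd9 and -0.39 for Fabp5) and when mock replicate 2 or 3, or e7 replicate 1, was omitted (-0.72 and -0.73 for Cd9, -0.34 to -0.39 for Fabp5, which passed only without mock replicate 4). The summed signal of the markers ranged from 138739 to 150084 with e7, from 152636 to 185271 with mock and from 147999 to 154360 in untreated mice. Marco, a scavenger receptor gene, differed by -0.39 ± 0.23 (adjusted p = 0.427). Of the 12 genes of the NADPH oxidase and nitric oxide list 0 were called by limma (3 lower at an unadjusted p under 0.05), with a median of -0.33. That median was -0.07 with the 3'/5' covariate and -0.03 against the untreated arrays. Limma also called 0 of 23 signalling kinases and adaptors (5 higher and 2 lower at an unadjusted p under 0.05) and 0 of 31 interferon-responsive genes (2 and 3). The cell cycle list had Mcm5 as its 1 member called of 35 (against 0.734% of all genes called lower).

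**Figure D4:**
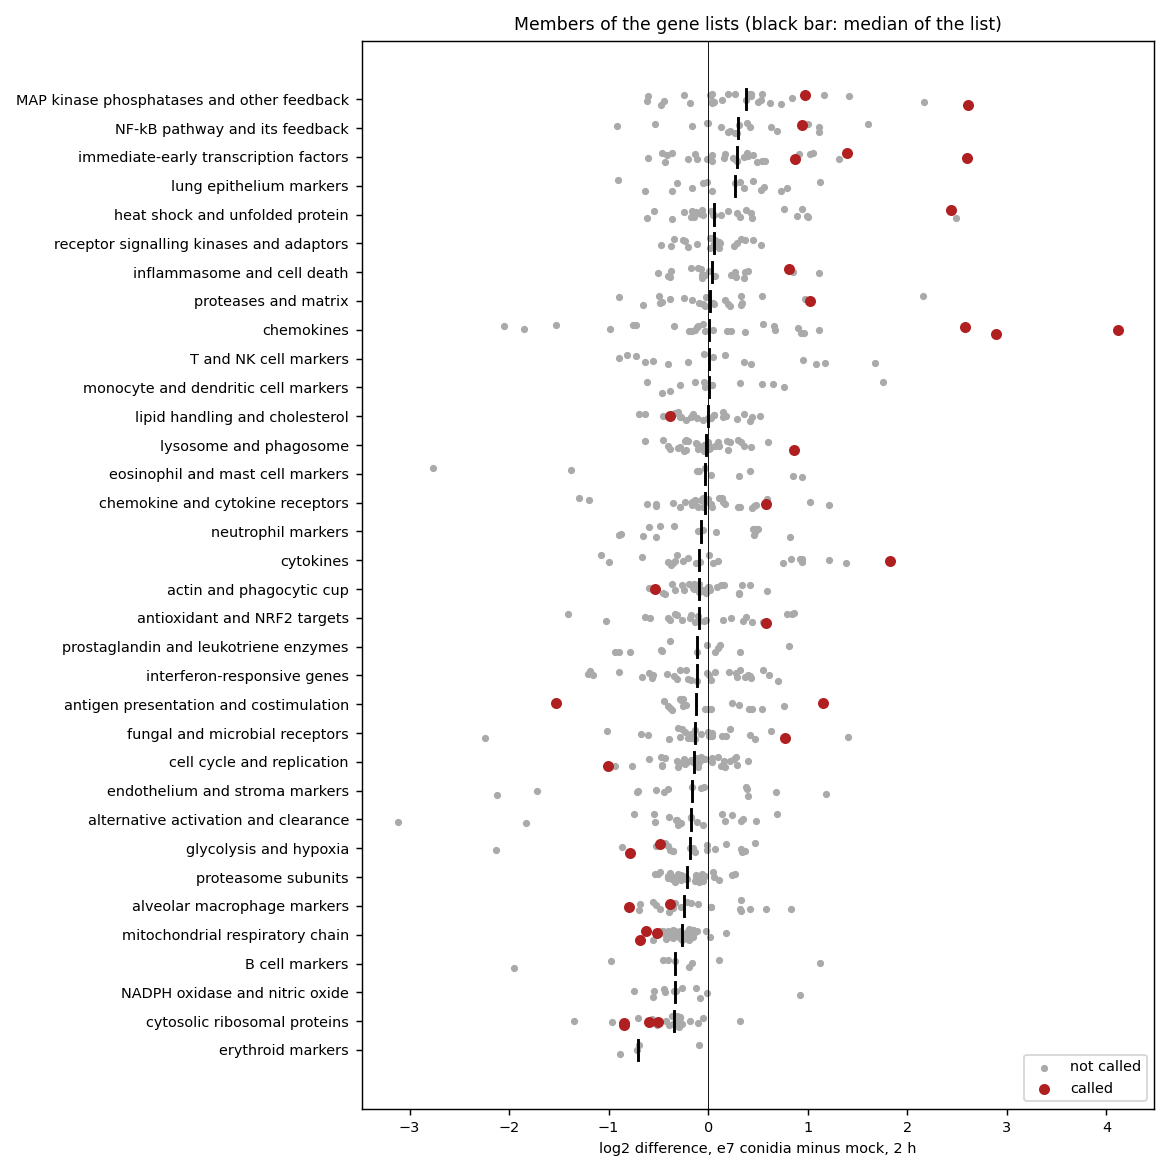
Log2 difference between e7 conidia and mock at 2 h (horizontal axis) for the measured members of 34 gene lists (vertical axis), 1 point per gene, red where called, with a black bar at the median of the list. The immediate-early, NF-kB and feedback lists have medians of 0.29, 0.3 and 0.38, and the ribosomal list has one of -0.34.

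The untreated mice give a second baseline. Set against them, e7 conidia called 9 of 22626 probe sets, all higher (0.0398%, limma, 1130 at an unadjusted p under 0.05), from 8 genes. These were Cxcl2 (4.89 ± 0.69), Ccl3 (4.23 ± 0.63), Cxcl1 (2.97 ± 0.5), Rgs1 (2.71 ± 0.31), Egr1 (2.45 ± 0.49), Atf3 (2.42 ± 0.26), Ereg (2.06 ± 0.34) and Maff (1.25 ± 0.21), with adjusted p-values between 8.08e-07 and 0.0355. The untreated arrays of Cxcl2 read 8.46, 7.83, 6.49 and 6.03, those of Ccl3 5.41, 6.22, 6.03 and 5.36, and those of Atf3 7.29, 7.07, 7.69 and 7.55. For Ccl3 and Atf3 they lay below every mock array, so that both rose further from untreated than from mock. Of the 52 called genes named by the rule, 7 were called against untreated as well, 43 kept their direction without a call, and 2 changed sign. Those 2 were Thbd at -0.17 and Dnajc17 at 0.15. Over all called genes, the untreated mean lay between the mock and e7 means for 116 of 127 rises and for 90 of 91 falls. Elavl1 was an example, at 9.8, 9.94, 9.89 and 9.92 in untreated mice, and so was Batf3, at 6.58, 6.93, 7.12 and 7.0. The called genes were chosen for a gap between these same mock and e7 means, which favours an untreated mean inside it. The share over all genes was not computed, so these counts cannot show whether mock or e7 lay apart from untreated. Mock against untreated called 1 probe set (0.00442%, 2238 at an unadjusted p under 0.05). The comparisons with mock and with untreated share the e7 arrays.

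With the lower dose, several of the leading genes lay between mock and e7. Cxcl2 read 10.81, 9.53, 10.28 and 9.21 on e6 replicates 1 to 4, Rgs1 read 8.85, 8.58, 8.77 and 8.22, and Egr1 read 8.41, 7.8, 8.49 and 8.31. For each of these 3 genes the e6 arrays lay above every mock array and below every e7 array. The e6 arrays of Cxcl1 (5.78 to 6.82), Atf3 (8.16 to 9.29) and Tcim (5.52 to 6.77) lay below every e7 array but overlapped with mock. These genes were chosen by a gap between mock and e7, and the share of all genes with e6 between them was not computed. Ccl3, at 9.87, 9.4, 8.93 and 8.2, overlapped with the e7 arrays. Ereg, at 6.31, 4.35, 6.9 and 5.25, overlapped with both groups. Limma called 0 probe sets between the doses (1588 at an unadjusted p under 0.05), and the nearest named genes were Rgs1 (1.51 ± 0.31) and Tcim (1.77 ± 0.35), both with an adjusted p of 0.0862. A fit of the compared groups alone called 9. Against mock, e6 also called 0 (945 at an unadjusted p under 0.05), and the e6 and e7 comparisons share the mock arrays.

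The arrays at 4 h and the KO arrays did not enter the e7 and mock means compared above. They did enter the pooled spread behind the calls, so the counts below are not independent of how the genes were found. In WT macrophages at 4 h, 36 of the 127 rises were called higher against the mock arrays of that time (28.3%, against 6.11% of all genes) and 3 lower, and 27 of the 91 falls were called lower (29.7%, against 11.4% of all genes) and 3 higher. In KO macrophages at 2 h, 21 of the 127 rises were called higher (16.5%, against 5.88% of all genes) and 23 of the 91 falls lower (25.3%, against 2.65%), with 0 called in the opposite direction. Genes called higher in all 3 comparisons numbered 13 and included Cxcl1, Egr1 and Ugcg. The 12 called lower in all 3 included Clec5a, Ddx49, Pomp and Psmg4. Cxcl1 differed by 4.48 ± 0.5 in WT at 4 h and by 2.19 ± 0.58 in KO at 2 h, and Egr1 by 3.27 ± 0.49 and 2.05 ± 0.57. Without mock replicate 2 of the WT 2 h group the genes shared with WT at 4 h in the same direction went from 63 of 218 called (28.9%) to 16 of 37 (43.2%), and those shared with KO from 44 of 218 (20.2%) to 6 of 37 (16.2%). With the 3'/5' covariate they were 11 of 33 (33.3%) and 3 of 33 (9.09%).

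**Figure D5:**
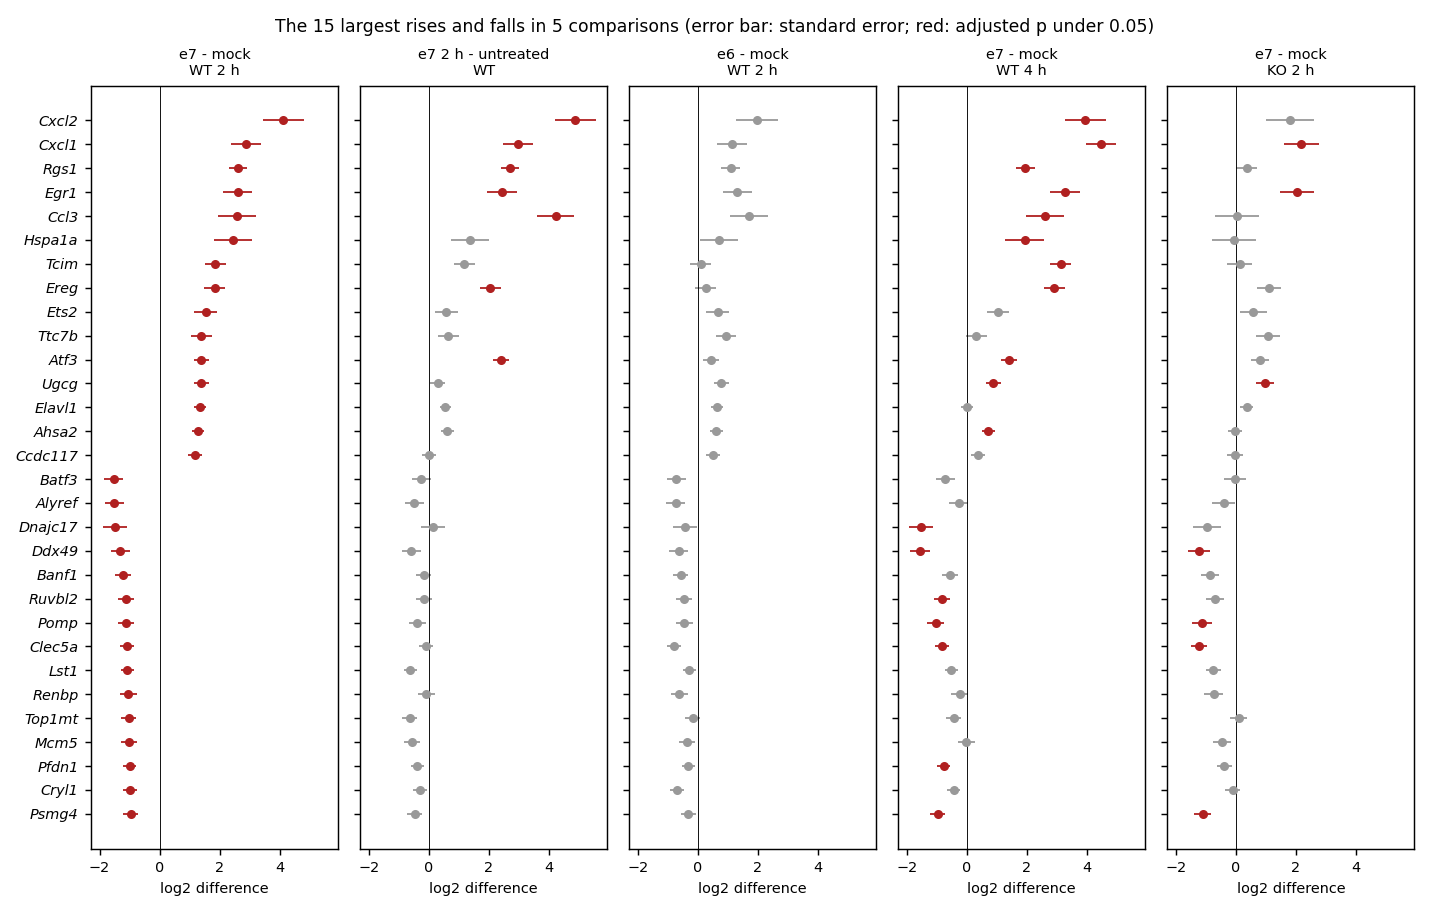
Log2 differences (horizontal axis) with standard errors for the 15 largest rises and 15 largest falls (vertical axis) in 5 comparisons, red where the adjusted p was under 0.05. Cxcl1, Rgs1, Egr1 and Ereg are red against mock, against untreated mice and at 4 h, and only Cxcl1 and Egr1 of these 4 are red in KO at 2 h. The panels with e6 and with untreated mice share arrays with the first panel.

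The difference between responses was tested directly, on genes that had been chosen by values entering it. Between 2 h and 4 h in WT mice, 617 of 22626 probe sets differed in their response (2.73%), 241 with a higher and 376 with a lower difference at 4 h (200 and 198 after quantile normalization). The response of Elavl1 was lower by 1.33 ± 0.27 on the log2 scale at 4 h (adjusted p = 0.00706), where e7 and mock differed by 0.01 ± 0.19. Tnf went the other way, from 0.94 ± 0.35 at 2 h to 2.78 ± 0.35 at 4 h (difference 1.84 ± 0.5, adjusted p = 0.038), and so did Maff, from 0.45 ± 0.21 to 2.06 ± 0.21 (difference 1.61 ± 0.29, adjusted p = 0.00323). For Cxcl2 the responses were 4.12 ± 0.69 and 3.95 ± 0.69 (difference -0.16 ± 0.97, adjusted p = 0.96). Between the genotypes at 2 h, 327 probe sets differed (1.45%), 268 higher and 59 lower in KO (81 and 92 after quantile normalization). Rgs1 differed by 0.36 ± 0.36 in KO against 2.61 ± 0.31 in WT (difference -2.25 ± 0.47, adjusted p = 0.0105), and Ahsa2 by -0.03 ± 0.24 against 1.28 ± 0.21 (difference -1.31 ± 0.32, adjusted p = 0.0257). Ccl3 differed by 0.04 ± 0.73 in KO against 2.58 ± 0.63 in WT, and Cxcl2 by 1.81 ± 0.79 against 4.12 ± 0.69, but neither difference between genotypes passed (-2.54 ± 0.96, adjusted p = 0.174, and -2.3 ± 1.05, adjusted p = 0.269). Leaving out 1 array moved the count between times to as few as 169 (without WT 4 h e7 replicate 2) and as many as 2408 (without WT 4 h e7 replicate 4), and that between genotypes to as few as 126 (without KO e7 replicate 1). The counts between times and between genotypes were 0 and 245 when only the groups compared were fitted.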

How the data were processed

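Expression was measured on Affymetrix mouse arrays, 1 sample per array, from biotin-labelled RNA of macrophages harvested fresh from lungs. The authors deposited a linear signal intensity per probe set and array, with a trimmed mean of 500.2 on every array (2% trimmed at each end). GCOS and RMA are named in the submitters' processing notes, without version or role. Of 22690 probe sets, 64 controls were left out. The platform annotation gave 20380 of the rest 1 symbol, 691 several and 1555 none, and 20351 matched RefSeq on GRCm38.p6, whose symbols were used. A gene was represented by its probe set of highest mean over the 51 arrays.

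Signals were taken to log2 with no pseudocount and no filter. The differences came from limma 3.58.1 (lmFit, contrasts.fit and eBayes, two-sided; R 4.3.3), with 1 mean for each of 15 groups over 51 arrays and Benjamini-Hochberg adjustment over 22626 probe sets, and were checked on simulated data. The spread is pooled over the groups. The number of arrays limits the precision.

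Named genes were the 15 largest rises and 15 largest falls among called genes with a group mean of at least signal 100, members of 34 lists (751 of 863 genes measured) and Cybb. The comparison and the lists were chosen with earlier results of these data known. The alternatives tried changed the normalization, low values, arrays fitted, covariates or baseline.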

Additional observations from a re-analysis of the deposited data

Results flagged for a closer look

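Some named genes responded differently at 4 h and at 2 h in WT mice, by limma's test of the difference (e7 minus mock at 4 h, minus the same at 2 h). The differences on the log2 scale were -1.33 for Elavl1, -1.27 for Tank, -0.94 for Ifnar1 and -0.7 for Siglecf, a marker of alveolar macrophages. They were 0.56 for Actb, 1.01 for Rps19, 1.61 for Maff and 1.84 for Tnf. Between genotypes at 2 h, KO minus WT, they were -2.25 for Rgs1 and -1.31 for Ahsa2. The adjusted p-values lay between 0.00323 and 0.038, and most of these genes were chosen by WT values at 2 h that enter the difference.

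Single arrays stood apart from the other 3 of their group in 8 of 178 groups tested with Dixon's criterion, a limit that chance exceeds in about 1 of 20 groups. With e7 conidia, replicate 2 was high for Renbp (10.24, others 9.61 to 9.69) and low for Eea1 (8.94, others 9.41 to 9.47) and Ptgs2 (3.27, others 4.2 to 4.37). Replicate 3 was high for Ccl4 (7.29, others 6.54 to 6.65) and low for Maff (9.33, others 9.79 to 9.83). In the mock group, replicate 2 was low for Il6 (-0.98, others 3.86 to 4.31), and replicate 4 was low for Ccl4 (4.41, others 5.98 to 6.2) and Plk2 (3.71, others 5.52 to 5.57).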

How the results depend on the processing

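The counts of called probe sets depended on the fit. Against mock, 365 became 4 with only the compared groups fitted, 77 with only the 30 WT arrays, 45 with the 3'/5' covariate, 612 with signals under 50 set to 50, 957 without dim probe sets, 592 with trend and robust eBayes, 1342 with array weights and 63 to 591 leaving out 1 array. Chosen after seeing the data were the untreated baseline (9) and the omission of e7 replicates 1 and 4 (13). Against e6, 0 became 9 with the compared groups, 5 with signals under 50 raised, 3 with a pseudocount of 32, 6 without dim probe sets, 3 with trend and robust and 0 to 10 leaving out 1 array. For the response at 4 h against 2 h, 617 became 0, 86 (WT only), 398 (quantile normalization), 1312 (no dim probe sets), 1282 (weights), 1426 (covariate) and 169 to 2408 leaving out 1 array. Between genotypes, 327 became 173 (quantile), 511 (signals raised), 734 (pseudocount), 102 (no dim), 1211 (weights) and 126 to 302 leaving out 1 array. Genes shared with WT at 4 h, 63, became 0 (compared groups), 15 (WT only), 117 (signals raised), 100 (pseudocount), 203 (no dim), 116 (trend and robust), 223 (weights), 11 (covariate) and 16 to 102 leaving out 1 array. Genes shared with KO at 2 h, 44, became 2, 89, 69, 125, 79, 275 and 3 in the same order without the WT-only fit, and 6 to 57 leaving out 1 array. Same-numbered e7 and mock arrays did not deviate together over all probe sets (correlations -0.0315 to 0.0195). With 4 arrays per group and dim probe sets included, this cannot decide whether the replicate numbers pair the samples. A block on the replicate numbers gave 333 against mock and 958 for the times, and it ended the calls of Hspa1a, Mcm5, Fabp5 and Ifnar1. Dnajc17 (0.15) and Thbd (-0.17) reversed against untreated arrays. The cause of these reversals and changes was not tested. Of the called probe sets, 14 had both group means under a signal of 50, where values sit close to background.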
